A study of Homo sapiens with 12 samples.

Results

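The transcripts of 8 hepatocyte transcription factors, HNF4A, NR5A2, FOXA1, FOXA2, FOXA3, CEBPA, CEBPB and ONECUT1, were examined in 6 peak lists of RNA immunoprecipitation followed by sequencing (RIP-seq). In RIP-seq an antibody pulls down a protein together with the RNA attached to it, and that RNA is set against input RNA from before the pull-down. All rows that carried one of these gene names were taken, and each of the 8 genes had at least 1 peak among the 10830 gene names found in any list. The cells were HepG2, a long-established line from a human liver cancer. Of 12 samples, 6 were inputs and 6 were RIP samples, with 2 replicates for each of METTL16, eIF3a and eIF3b. METTL16 deposits m6A on RNA as a methyltransferase, and eIF3a and eIF3b are subunits of translation initiation factor eIF3, which helps to load ribosomes onto mRNA. Every group came from stable HepG2 lines that overexpressed the protein with a Flag tag, without further treatment, and the methods describe ultraviolet cross-linking of the cells. By the labels, METTL16 and eIF3b were pulled down through Flag and eIF3a through an antibody to eIF3a, whereas the deposited lists are all named flag. Protein and antibody therefore cannot be told apart where eIF3a is compared. The study calls the replicates biological. No line without a tag was analysed here.

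Hepatocyte identity is kept by a small network of transcription factors that bind each other's regulatory regions and switch on liver genes together. HNF4A is the nuclear receptor at its centre, FOXA proteins open closed chromatin as pioneer factors, C/EBP proteins (CEBPA, CEBPB) are basic leucine zipper factors of metabolism and the acute phase response, ONECUT1 (HNF6) acts in liver and biliary development, and NR5A2 (LRH-1) is a nuclear receptor of bile acid and cholesterol genes. The measurement here is of their mRNAs as RNA bound to METTL16 or eIF3, not of the factors' own binding to DNA.

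The 6 lists held 12921 to 21733 peaks on 5226 to 8166 genes, with median widths of 180 to 210 bases and median fold enrichments of RIP over input of 2.73 to 3.40. The eIF3a replicate 2 list had the fewest, 12921 peaks on 5226 genes, against 21733 on 8166 in eIF3a replicate 1. The METTL16 lists were nearer to it in size, with 13199 peaks on 5829 genes and 13136 on 6337. Mean GC content of all peaks was 58.99% and 60.8% in METTL16, 58.1% in eIF3b replicate 1, and 53.1% to 54.1% in the other 3 lists. A peak reports enrichment over input and not an amount of RNA, the read depth behind it is unknown, and a missing peak cannot be told apart from a transcript with too few reads.

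The 8 factors carried 115 peaks in all, 60 to 1492 bases wide (median 211), with fold enrichments of 1.32 to 9.38. METTL16 replicates 1 and 2 had 24 and 17 of these peaks, eIF3a 23 and 12, and eIF3b 21 and 18. By the canonical GENCODE transcript, 54 peaks were centred in coding sequence, 56 in the 3′ UTR, 3 in the 5′ UTR and 2 off the transcript. The stop codon lay inside 24 peaks, and the start codon inside 4, all of them on ONECUT1.

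For 7 of the factors, some coding bases were under a peak in 5 or 6 of the 6 lists, and the longest coding stretch under a peak in the greatest number of lists is shown here because it is where the lists met. Sequences are the GRCh38 reference on the transcript strand, 5′ to 3′, with a stop codon in capitals. They lie at chr20:44429618-44429665 (HNF4A, plus strand, exon 10), chr14:37591765-37591914 (FOXA1, minus strand, exon 2), chr20:22582104-22582402 (FOXA2, minus, exon 2), chr19:45872729-45872788 (FOXA3, plus, exon 2), chr19:33301338-33301369 (CEBPA, minus, its single exon), chr20:50191978-50192071 (CEBPB, plus, its single exon) and chr15:52789207-52789296 (ONECUT1, minus, exon 1). The HNF4A, CEBPA and CEBPB stretches each end with the stop codon, and the other 4 lie inside the reading frame.
HNF4A: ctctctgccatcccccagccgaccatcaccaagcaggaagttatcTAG
FOXA1: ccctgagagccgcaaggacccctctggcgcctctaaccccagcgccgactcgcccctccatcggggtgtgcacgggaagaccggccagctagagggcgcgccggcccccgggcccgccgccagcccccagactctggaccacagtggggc
FOXA2: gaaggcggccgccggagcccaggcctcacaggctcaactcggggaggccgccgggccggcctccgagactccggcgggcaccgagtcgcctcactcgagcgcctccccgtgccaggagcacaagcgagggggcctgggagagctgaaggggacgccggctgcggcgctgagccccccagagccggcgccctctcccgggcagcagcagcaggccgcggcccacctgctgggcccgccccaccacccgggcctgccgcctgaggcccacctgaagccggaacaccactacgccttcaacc
FOXA3: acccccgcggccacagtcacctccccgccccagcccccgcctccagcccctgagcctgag
CEBPA: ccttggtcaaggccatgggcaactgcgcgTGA
CEBPB: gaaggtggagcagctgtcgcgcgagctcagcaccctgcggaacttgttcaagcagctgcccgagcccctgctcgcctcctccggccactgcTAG
ONECUT1: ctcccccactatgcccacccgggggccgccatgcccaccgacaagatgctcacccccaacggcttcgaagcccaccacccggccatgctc

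HNF4A and CEBPB were covered at these bases in all 6 lists. FOXA2, FOXA3 and CEBPA lacked only eIF3a replicate 2, FOXA1 lacked only eIF3b replicate 2, and ONECUT1 lacked only METTL16 replicate 2. The GC content of the 7 stretches was 56.3% for HNF4A, 62.5% for CEBPA, 67.0% for CEBPB, 70% for ONECUT1, 75.3% for FOXA1, 76.3% for FOXA2 and 78.3% for FOXA3. None of them held ACAGAGA, the letters around the adenosine that METTL16 methylates in U6 RNA. Over all member peaks, ACAGAGA on the transcript strand occurred in 2 of 115, 1 in eIF3a replicate 2 and 1 in eIF3b replicate 2, and on the opposite strand in 0. Among all peaks of the lists it occurred in 3.27% to 5.36% on the transcript strand and in 1.70% to 3.20% on the opposite strand. NR5A2 had no such stretch, since no more than 2 lists met at any of its bases.

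Of the 48 pairs of a factor and a list, 43 had a peak and 5 did not. Of the 10830 genes in any list, 53.8% and 58.5% had a peak in METTL16 replicates 1 and 2. These shares were 75.4% and 48.25% in eIF3a, and 74.45% and 69.9% in eIF3b. HNF4A, FOXA1, FOXA2 and CEBPB were present in every list. FOXA3 and CEBPA were missing from eIF3a replicate 2, ONECUT1 from METTL16 replicate 2, and NR5A2 from METTL16 replicate 2 and eIF3b replicate 1. With a peak in both replicates taken as bound, METTL16 bound 6 of the 8 transcripts, all but NR5A2 and ONECUT1, while 42.6% of the genes in any list and 22% of all 20007 protein coding genes met the same rule. eIF3a bound 6, all but FOXA3 and CEBPA, against backgrounds of 42.4% and 22%. The rule asks for no shared position, and the NR5A2 peaks of the eIF3a replicates shared no base. eIF3b bound 7, all but NR5A2, against 60% and 31.1%. The 4 factors present in every list were bound by all 3 proteins, against 25.2% of genes in any list. These counts describe 8 genes that were chosen with earlier results of these data known, and carry no test. Without eIF3a replicate 2 the count for all 3 proteins was 6. A peak in eIF3a replicate 1 then sufficed, so that count could not fall.

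**Figure D1:**
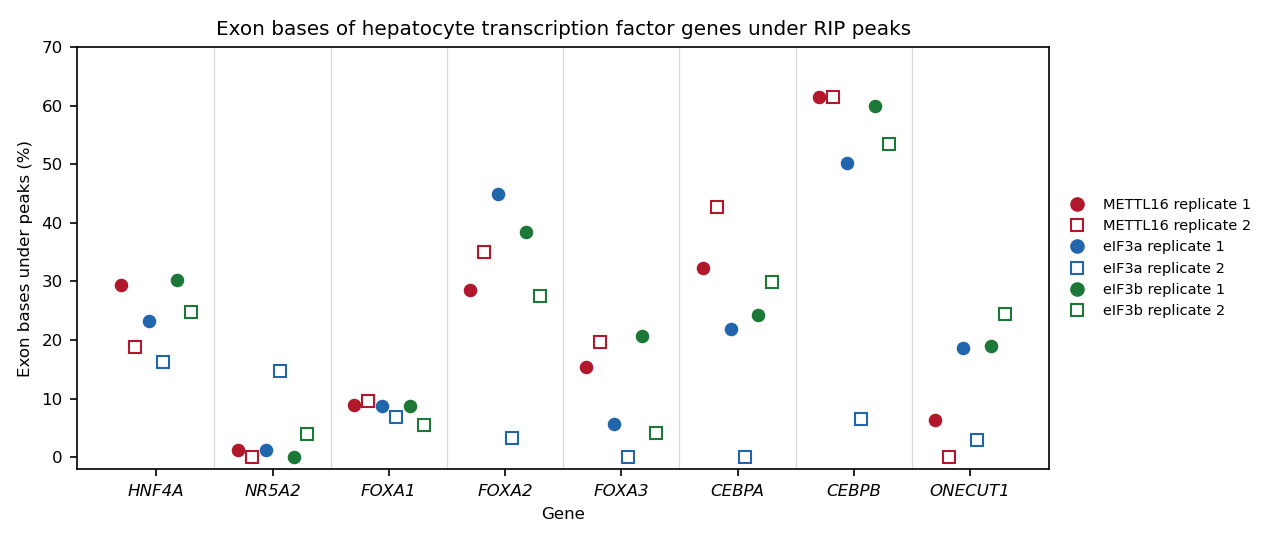
Share of the union of annotated exon bases of each gene that lay under peaks (%), 1 point per list, with filled circles for replicate 1 and open squares for replicate 2 of METTL16 (red), eIF3a (blue) and eIF3b (green). CEBPB reached 61.5% in both METTL16 lists and 6.53% in eIF3a replicate 2, while FOXA1 stayed between 5.44% and 9.54% in all 6 lists.

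HNF4A (ENSG00000101076.20, chr20:44355699-44432845, plus strand, 10 exons in the canonical transcript) had the most peaks, 33 over the 6 lists. Peaks covered 29.5% and 18.9% of its exon bases in METTL16 replicates 1 and 2, 23.3% and 16.21% in eIF3a, and 30.3% and 24.7% in eIF3b. The second replicate was the lower of the pair for each protein, and the METTL16 values spanned those of eIF3a replicate 1 and eIF3b replicate 2. No peak touched exon 1, which differs between transcripts of its alternative promoters.

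Most of the HNF4A signal lay at the 3′ end. In each list 1 peak spanned the stop codon, and a second group covered the distal 3′ UTR. Across the 6 lists 1051 bases were under a peak every time, 48 of them coding and the rest 3′ UTR. The 3′ UTR was covered to 69.2% and 37.1% in METTL16, 61.6% and 50.3% in eIF3a, and 65.3% and 60.6% in eIF3b. Coding coverage varied more. It was 58.7% and 54.3% in METTL16, 30.02% and 3.53% in eIF3a, and 74.0% and 43.3% in eIF3b, so both eIF3a lists were below the other 4. In eIF3a replicate 2 the 48 coding bases printed above were the whole of the coding signal.

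The highest fold enrichment on HNF4A was 4.69 and 2.71 in METTL16, 3.36 and 2.34 in eIF3a, and 6.16 and 4.38 in eIF3b. In eIF3b replicate 1 it belonged to a peak of 1256 bases at chr20:44429588-44430843, with 78 coding bases and the rest in the 3′ UTR. Ranked by its best fold among the genes of each list, HNF4A stood at percentiles 25.2 to 61.1. Ranked by its smallest deposited p-value it stood at 88.8 to 99.4, and the p-value rank was above the fold rank in all 6 lists.

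NR5A2 (ENSG00000116833.14, chr1:200027614-200177420, plus strand, 8 exons) had the fewest peaks, 5 in 4 lists. Coverage of its exon bases was 1.21% and 0% in METTL16, 1.19% and 14.7% in eIF3a, and 0% and 4.004% in eIF3b. The lists did not agree on where the RNA was enriched. In eIF3a replicate 2 a single peak of 6 exonic blocks and 1110 coding bases ran from chr1:200027902 to 200120879, codons 19 to 434, with a fold enrichment of 7.12. It covered 68.3% of the coding bases, and no other list had a coding peak on this gene.

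In METTL16 replicate 1, eIF3a replicate 1 and eIF3b replicate 2 the NR5A2 peaks lay in the last exon, in the 3′ UTR, and were 90 to 211 bases wide. The METTL16 replicate 1 peak (chr1:200176972-200177062, fold 6.62) and the eIF3a replicate 1 peak (chr1:200176883-200176972, fold 5.37) shared 1 base, and the 2 eIF3b replicate 2 peaks (fold 6.85 and 8.32) lay further upstream. Fold percentiles among genes were 63.4 to 76.7 in the 4 lists, whereas p-value percentiles were 8.35 and 15.9 in METTL16 and eIF3a replicate 1, 79.3 in eIF3a replicate 2 and 34.1 in eIF3b replicate 2. NR5A2 also had the lowest coding GC content of the 8, at 47.7%.

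**Figure D2:**
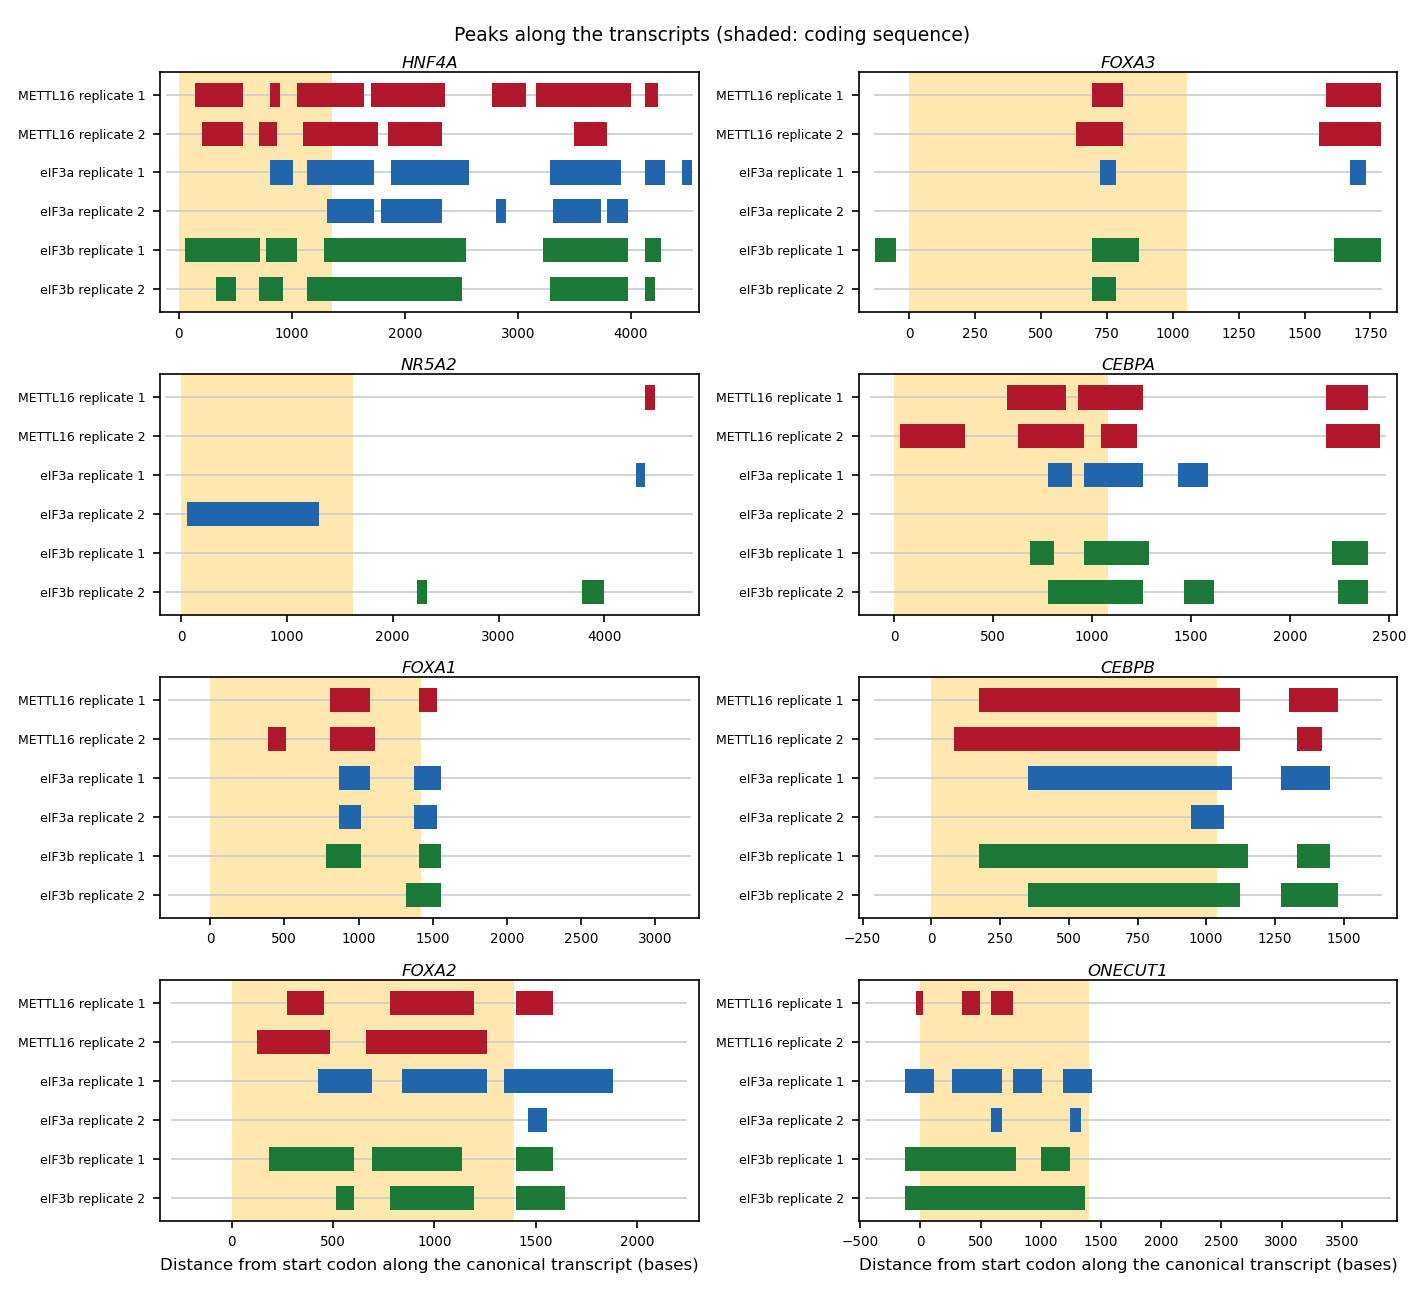
Peaks of each list along the canonical transcript of each gene, as distance from the first base of the start codon in bases, with the coding sequence shaded; bars run from the first to the last transcript base of a peak. A peak included the stop codon in 6 lists for HNF4A and CEBPB and in 5 for FOXA1 and CEBPA. The wide CEBPB peak also ran through much of the coding sequence, and the ONECUT1 peaks lay mostly over the coding sequence. The 2 CEBPB peaks upstream of the GENCODE gene start are not drawn.

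The FOXA genes are forkhead factors, with most of the protein coded in exon 2. FOXA1 (ENSG00000129514.8, chr14:37589552-37596059, minus strand) had low and even coverage, 8.86% and 9.54% of exon bases in METTL16, 8.84% and 6.82% in eIF3a, and 8.84% and 5.44% in eIF3b. All 11 peaks fell in exon 2 at a few places. A coding peak over codons 290 to 340 was shared by 5 lists, and a peak over the stop codon by 5. METTL16 replicate 2 lacked the stop codon peak and eIF3b replicate 2 lacked the coding one.

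The strongest FOXA1 peak was the coding one in METTL16, with fold enrichments of 5.00 and 4.89 at codons 270 to 360 and 270 to 370. In eIF3a the coding peak had 1.97 and 1.63 and the stop codon peak 3.41 and 2.24. In eIF3b replicate 1 they had 2.75 and 2.24. In eIF3b replicate 2 the stop codon peak alone remained, at 7.34, the highest of the gene. Coding coverage was 19.9% and 29.7% in METTL16, 17.8% and 13.5% in eIF3a, and 17.8% and 7.19% in eIF3b, with both METTL16 lists above the other 4 by a small margin in replicate 1.

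FOXA2 (ENSG00000125798.15, chr20:22580998-22585455, minus strand) was covered over 28.6% and 35.1% of its exon bases in METTL16, 44.9% and 3.31% in eIF3a, and 38.4% and 27.4% in eIF3b. The highest and the lowest value both came from eIF3a. In 5 lists a coding peak of 417 to 596 bases had codons 280 to 380 in common, with fold enrichments of 5.36 and 6.09 in METTL16, 2.98 in eIF3a replicate 1, and 4.25 and 2.85 in eIF3b. A second peak in the early 3′ UTR, 90 bases of which were shared by 5 lists, was absent from METTL16 replicate 2. In eIF3a replicate 2 those 90 bases, at a fold of 1.45, were the only peak. eIF3a replicate 1 was also the only list in which a FOXA2 peak, 536 bases wide, crossed the stop codon.

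FOXA3 (ENSG00000170608.3, chr19:45863989-45873797, plus strand) had exon coverage of 15.5% and 19.6% in METTL16, 5.69% and 0% in eIF3a, and 20.7% and 4.23% in eIF3b. METTL16 was above eIF3a in both replicates, and the eIF3b values fell on either side. The coding peak around codons 242 to 261 had low fold enrichments, 1.68 and 2.04 in METTL16, 1.34 in eIF3a replicate 1, and 1.71 and 1.39 in eIF3b. The METTL16 signal was mainly at the end of the 3′ UTR, where peaks of 209 and 238 bases ended at the last annotated base of the gene with fold enrichments of 5.74 and 6.85. At the same end the fold was 1.45 in eIF3a replicate 1 and 1.87 in eIF3b replicate 1.

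A 90-base peak at the start of the FOXA3 transcript (chr19:45864319-45864408, fold 3.62), of which 7 bases lay outside annotated exons, occurred in eIF3b replicate 1 alone. The gene's best fold stood at percentiles 65.1 and 69.8 in METTL16 and at 2.17 in eIF3a replicate 1. The eIF3b percentiles were 38.0 and 1.41.

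CEBPA (ENSG00000245848.3, chr19:33299934-33302534, minus strand, 1 exon) had coverage of 32.3% and 42.7% of exon bases in METTL16, 22.0% and 0% in eIF3a, and 24.2% and 29.99% in eIF3b. Both METTL16 lists were above the other 4. The difference was in the coding sequence, where METTL16 covered 41.9% and 64.3%, eIF3a 22.5% and 0%, and eIF3b 22.4% and 27.9%. In the 3′ UTR the 5 lists with a peak were close together, between 23.4% and 34.1%.

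The METTL16 coding peaks were also the most enriched. In replicate 1 a peak over codons 190 to 289 (chr19:33301548-33301847) had a fold of 9.38, the highest of the 115 peaks. In replicate 2 a peak over codons 210 to 319 had 4.32, and a peak over codons 10 to 120 (chr19:33302056-33302385), a stretch without a peak in any other list, had 7.30. The stop codon was inside a peak in all 5 lists with one, with fold enrichments of 3.47 and 2.99 in METTL16, 2.92 in eIF3a replicate 1, and 5.53 and 2.69 in eIF3b. CEBPA encodes a factor that restrains hepatocyte division and supports metabolic genes.

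CEBPB (ENSG00000172216.6, chr20:50190830-50192668, plus strand, 1 exon), a factor of the acute phase response and of regeneration, had the highest coverage of the 8 in every list but eIF3a replicate 2, where HNF4A, NR5A2 and FOXA1 were above it. It was 61.5% in both METTL16 lists, 50.1% and 6.53% in eIF3a, and 59.9% and 53.4% in eIF3b. This ranking depends on the denominator, the union of exon bases. The union is 1839 bases for CEBPB, as is its transcript, but 10167 for HNF4A, whose canonical transcript has 4645. Over the canonical transcript, HNF4A was above CEBPB in METTL16 replicate 1, eIF3a replicate 1 and both eIF3b lists. One wide CEBPB peak, 743 to 1041 bases in 5 lists, ran through most of the coding sequence and over the stop codon. Its fold enrichment was 3.33 and 4.71 in METTL16, 2.39 in eIF3a replicate 1, and 3.98 and 2.65 in eIF3b. In eIF3a replicate 2 only 120 bases over the stop codon were called, at a fold of 1.32.

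Coding coverage of CEBPB was 83.4% and 92.0% in METTL16, 66.2% and 9.06% in eIF3a, and 83.4% and 66.2% in eIF3b. METTL16 replicate 1 and eIF3b replicate 1 gave the same coding bases, so METTL16 was not above all others here. A further peak upstream of the coding sequence occurred in METTL16 replicate 1 (chr20:50190642-50190761, fold 3.97) and in eIF3b replicate 1 (chr20:50190583-50190761, fold 4.94). It lay before the GENCODE gene start and inside the RefSeq gene, which starts at 50190583, and its bases were not counted in the coverage above.

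ONECUT1 (ENSG00000169856.9, chr15:52755053-52791078, minus strand, 2 exons) gave the opposite order. Its exon coverage was 6.40% and 0% in METTL16, 18.6% and 2.95% in eIF3a, and 19.1% and 24.4% in eIF3b, with both METTL16 and both eIF3a lists below both eIF3b lists. Almost all of it was coding. Coding coverage was 25.2% and 0% in METTL16, 70.3% and 12.9% in eIF3a, and 74.2% and 97.6% in eIF3b, while 3′ UTR coverage was 0% in 5 lists and 0.999% in eIF3a replicate 1.

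ONECUT1 was the only one of the 8 with peaks over the start codon, in METTL16 replicate 1, eIF3a replicate 1 and both eIF3b lists. The METTL16 replicate 1 peak there was 61 bases wide with a fold of 2.95, that of eIF3a replicate 1 was 240 bases with 4.65, and those of eIF3b were 925 and 1492 bases with 6.99 and 5.38. The eIF3a replicate 1 peak and both eIF3b peaks began at the same base, 128 bases before the start codon. In eIF3b replicate 2 the peak joined both exons and reached codon 455 of 466. The highest fold elsewhere was 6.45 in eIF3a replicate 1, over codons 87 to 226, and 3.53 in METTL16 replicate 1. In eIF3a replicate 2 both peaks were 90 bases wide, with folds of 1.76 and 1.69.

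**Figure D3:**
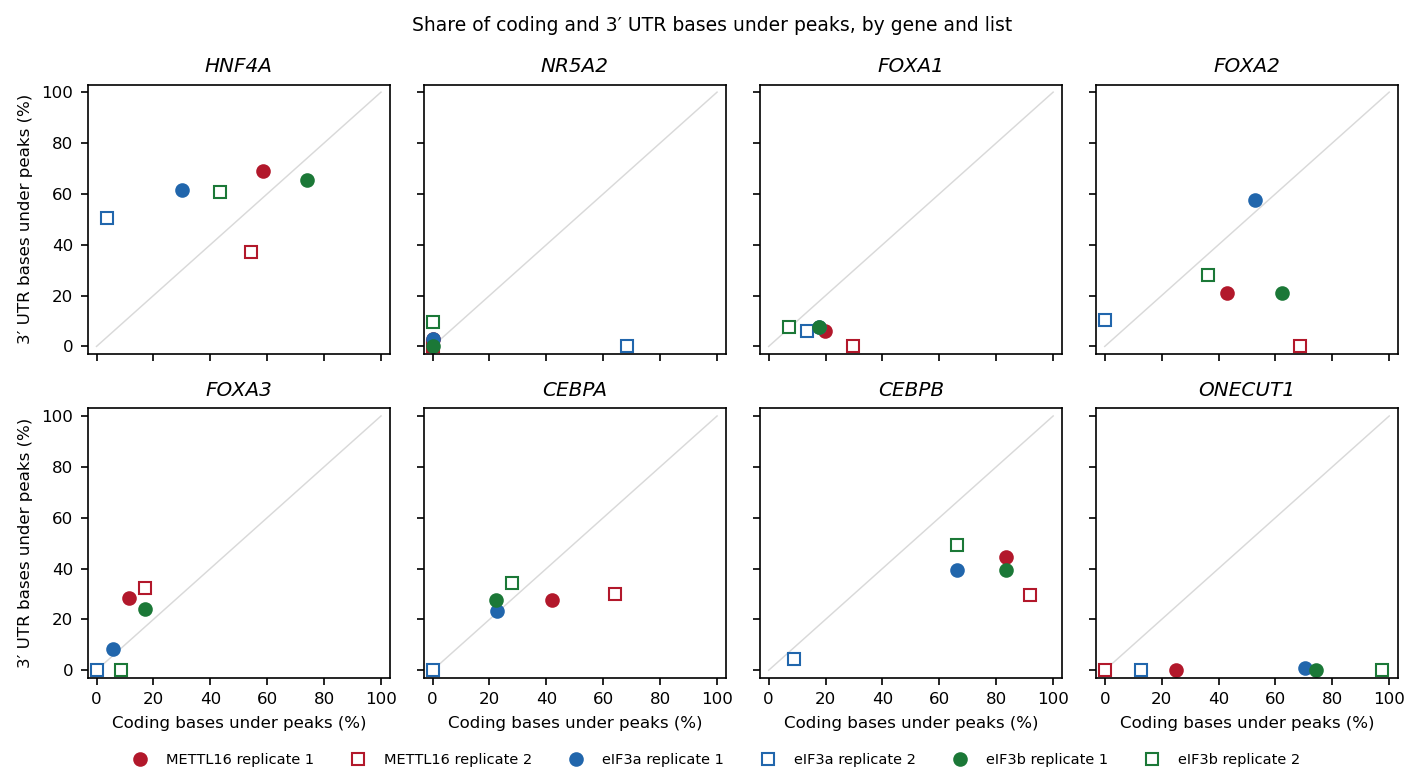
Coding bases under peaks (%, horizontal) against 3′ UTR bases under peaks (%, vertical), 1 panel per gene and 1 point per list, with a grey line where both are equal. ONECUT1 spread along the coding axis up to 97.6%, HNF4A kept 37.1% or more of its 3′ UTR in every list, and the METTL16 points of CEBPA lay at 41.9% and 64.3% coding, to the right of the other lists.

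To see whether a protein covered more of a transcript than another, the exon coverage of its 2 lists was set against that of 2 others for each gene, in 24 comparisons. In 12 of them the groups did not overlap. METTL16 was above eIF3a for 4 of 8 (FOXA1, FOXA3, CEBPA and CEBPB) and below for 0, whereas over the 9618 genes with a peak for either protein 13.6% were above and 23.6% below. METTL16 was above eIF3b for 3 of 8 (FOXA1, CEBPA and CEBPB) and below for 1 (ONECUT1), against 5.35% and 39.1%. eIF3a was above eIF3b for 0 of 8 and below for 4 (HNF4A, CEBPA, CEBPB and ONECUT1), against 6.56% and 22.7%. An exact permutation test, two-sided, cannot give a p under 0.333 with 2 lists against 2, and none of the 24 comparisons could pass a threshold.

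For CEBPA, coverage was 37.5% ± 7.37 in METTL16 against 11.0% ± 15.5 in eIF3a (mean ± SD, n = 2 each), with eIF3b at 27.1% ± 4.08. For CEBPB the means were 61.5% ± 0, 28.3% ± 30.8 and 56.6% ± 4.58 in METTL16, eIF3a and eIF3b, and the METTL16 minus eIF3a difference of 33.2 percentage points was 11.4 without eIF3a replicate 2 and 55.0 without eIF3a replicate 1. For FOXA3 they were 17.5% ± 2.93, 2.85% ± 4.02 and 12.5% ± 11.7. For ONECUT1 they were 3.20% ± 4.53, 10.8% ± 11.1 and 21.7% ± 3.78. FOXA1 differed by 1.37 and 2.06 percentage points between METTL16 and eIF3a or eIF3b, and its lists stood apart by 391 against 390 bases. The first difference was 0.363 without eIF3a replicate 2 and 2.38 without eIF3a replicate 1, and the second was 0.363 without eIF3b replicate 2 and 3.76 without eIF3b replicate 1. HNF4A (24.2% ± 7.50, 19.8% ± 5.00 and 27.5% ± 3.95), FOXA2 (31.8% ± 4.60, 24.1% ± 29.4 and 32.9% ± 7.78) and NR5A2 (0.603% ± 0.853, 7.95% ± 9.56 and 2.00% ± 2.83) overlapped between METTL16 and either other protein. The sign of these overlapping differences could turn on 1 list. Without eIF3a replicate 2, METTL16 minus eIF3a for FOXA2 was -13.1 in place of 7.71 percentage points.

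A count of genes whose coding coverage in both METTL16 lists exceeded all 4 eIF3a and eIF3b lists was added after the values had been seen. It held for 2 of the 8, FOXA1 and CEBPA, and for 5.1% of the 9214 genes compared. Coding GC content was high in this set, at percentiles 99.6 for CEBPA, 99.3 for CEBPB, 95.8 for FOXA2, 93.4 for FOXA1, 86.3 for ONECUT1, 85.7 for FOXA3, 75.5 for HNF4A and 32.2 for NR5A2 among 10309 genes with a peak. The peaks of the METTL16 lists were also richer in GC than those of eIF3a, over all genes and over these 8, where list means were 63.4% and 65.7% against 58.3% and 57.1%, with 64.6% and 59.4% in eIF3b. The part of base composition in the order of the proteins was not tested.

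By peak centres, 53.3% ± 7.78 of the METTL16 peaks on these factors were coding, against 42.6% ± 1.28 for eIF3a and 47.2% ± 3.93 for eIF3b (mean ± SD over 2 lists). With peaks of a fold of at least 4 only, the order of METTL16 and eIF3a turned, at 63.1% ± 28.6 and 66.7% ± 47.1. In eIF3a replicate 2 only the NR5A2 coding peak was left at that setting, so the turn rests on few peaks. All peaks of the same lists had 61.6% and 69.3% coding centres in METTL16, 57.3% and 58.4% in eIF3a, and 61.9% and 58.1% in eIF3b, so that the factors were lower in each of the 6 lists. Peaks over the stop codon made up 17.4% and 17.7% of the factors' placed peaks in METTL16, 26.1% and 25.0% in eIF3a, and 20.0% and 22.2% in eIF3b. Over all peaks this share was 5.70% to 9.60%. Stop codon peaks came from HNF4A and CEBPB in 6 lists each, FOXA1 and CEBPA in 5 each, and FOXA2 and ONECUT1 in 1 each. The factors have few exons, 1 or 2 in all but HNF4A and NR5A2, where the median gene with a peak has 10. The part of exon number in the stop codon share was not tested.

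Peaks of different proteins on these transcripts often overlapped. Of the METTL16 peaks, 81.4% ± 10.2 shared at least 1 exonic base with an eIF3b peak (mean ± SD over 4 pairs of lists), and of the eIF3a peaks 82.0% ± 5.02 did so. The same shares over all peaks were 69.4% ± 11.2 and 60.4% ± 0.509. The factors' peaks had median widths of 194.5 and 300 bases in METTL16, 239 and 150.5 in eIF3a, and 240 and 210.5 in eIF3b. All peaks had 180 and 180, 180 and 210, and 210 and 181, so only eIF3a replicate 2 had narrower peaks on the factors. The part of peak width in these overlaps was not tested. METTL16 peaks overlapped an eIF3a peak in 56.7% ± 27.2, against 51.5% ± 13.2 over all peaks. That mean was made of 83.3% and 76.5% with eIF3a replicate 1 and 37.5% and 29.4% with eIF3a replicate 2, so it was 79.9% without eIF3a replicate 2 and 33.5% without eIF3a replicate 1. Between the replicates of METTL16, 62.5% of the replicate 1 peaks met a replicate 2 peak and 88.2% the other way. For eIF3a these shares were 39.1% and 83.3%, and for eIF3b 81.0% and 83.3%. The 4 pairs share lists and are not independent.

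**Figure D4:**
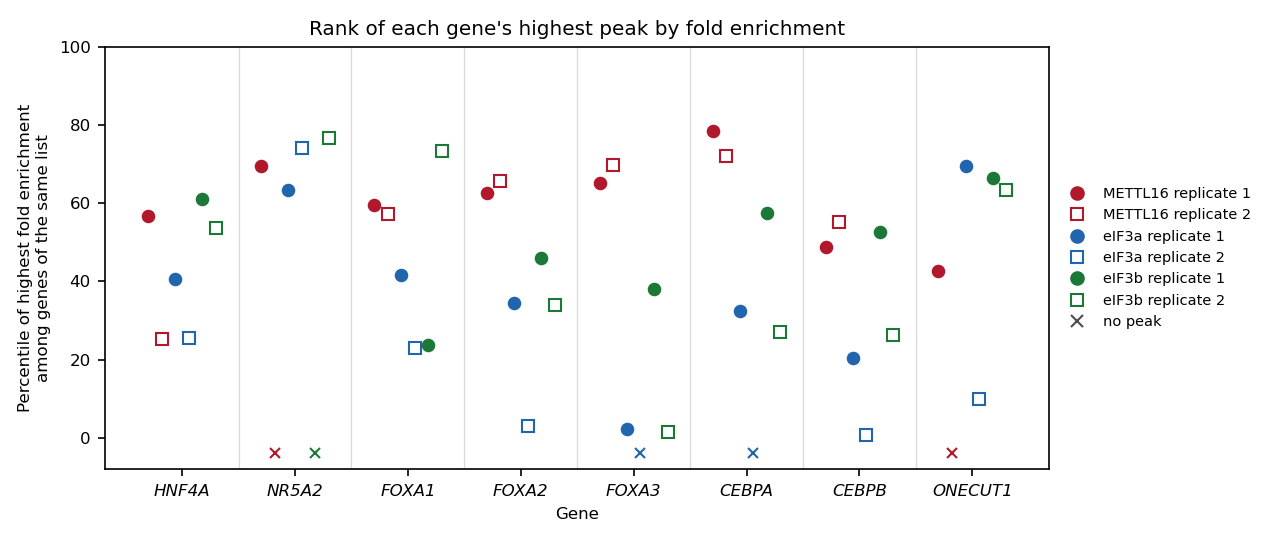
Percentile of each gene's highest fold enrichment among all genes of the same list (0 lowest, 100 highest), 1 point per list, with a cross for no peak. CEBPA was at 78.6 and 72.1 in the METTL16 lists, while FOXA2, FOXA3 and CEBPB fell below 3 in an eIF3a list.

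In strength of enrichment the place of the factors depended on the list. With all lists pooled, the highest fold of the gene was above the median gene of its list in 22 of 43 cases. FOXA2 was at 62.6 and 65.7 in METTL16, 34.5 and 2.95 in eIF3a, and 45.9 and 34.0 in eIF3b. CEBPA was at 78.6 and 72.1 in METTL16, 32.5 in eIF3a replicate 1 with no peak in replicate 2, and 57.5 and 27.2 in eIF3b. CEBPB was at 48.9 and 55.1 in METTL16 and at 52.6 and 26.3 in eIF3b. ONECUT1 was at 42.7 in METTL16 replicate 1 and at 63.4 to 69.6 in eIF3a replicate 1 and both eIF3b lists. The lowest values were 0.765 for CEBPB in eIF3a replicate 2, then 1.41 for FOXA3 in eIF3b replicate 2 and 2.17 for FOXA3 in eIF3a replicate 1. Per peak, the median fold of the factors was 3.16 and 2.71 in METTL16, 2.31 and 1.73 in eIF3a, and 2.01 and 2.53 in eIF3b.

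Annotated genes on the opposite strand met the peaks of the C/EBP genes alone. Of the CEBPA bases under a peak in any list, 699 of 1499 lay opposite antisense genes (ENSG00000267580 and ENSG00000267727), and of the CEBPB bases 231 of 1458 lay opposite CEBPB-AS1. The libraries were made with a stranded kit, but whether peak calling used the strand is not given in the sources used here. The other 6 factors had no annotated gene opposite their peaks.

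The wider liver network was described with 45 further transcription factors. Of these, 43 had a peak in some list and 20 in all 6, while RXRB and MLXIPL had none. Of the genes in any list, 25.2% have a peak in all 6. The share of protein coding genes with a peak in some list is not given, so the 43 has no background here. METTL16 bound 29 of the 45, eIF3a 25 and eIF3b 36, against 42.6%, 42.4% and 60% of genes in any list. The 45 were listed whether or not they had a peak, and of all protein coding genes 22%, 22% and 31.1% met the rule. Among the 20, the highest median fold percentiles were those of NFIC (97.7), NR2F1 (88.6), NFIA (87.1), PROX1 (84.0) and CREB3L3 (82.3), where NFIC and NFIA are nuclear factor I proteins, NR2F1 an orphan nuclear receptor, PROX1 a homeobox factor of early liver and CREB3L3 a liver factor of lipid metabolism. DBP, a clock-controlled leucine zipper factor, was the only one bound by METTL16 and absent from both eIF3a lists, and both eIF3b lists had it.

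The presence pattern of FOXA3 and CEBPA, every list but eIF3a replicate 2, was shared in 6 of 6 lists by ATF5, CEBPD, ESRRA, GATA6, NR0B2, NR2F2 and XBP1, and by 1009 of the 10830 genes including both factors. That of ONECUT1 was shared by its paralog ONECUT2 and by TEF, among 544 genes. The pattern of NR5A2 was held by 34 genes and by none of the 45, the nearest being ONECUT2, RORA and TEF with 5 of 6 lists. The pattern of HNF4A, FOXA1, FOXA2 and CEBPB was held by 2730 genes.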

How the data were processed

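RIP-seq of METTL16, eIF3a and eIF3b was analysed from 6 peak lists, 1 for each RIP sample. Per the methods, the authors aligned reads with STAR (GRCh38) and used exomePeak with its defaults to call peaks; versions, the gene annotation and the pairing of inputs are not given in the sources used here. Each deposited row gives the gene, the exonic blocks of the peak and the caller's p-value. The deposited log10 of raw and adjusted p, made by the authors' peak caller, was treated as a score. The deposited fold enrichment is a ratio of RIP to input in the peak, scaled by the authors' peak caller. No read counts were used, so sample depth is unknown and counting intervals were not computed; precision rests on 2 replicates, which may share technical spread. The inputs entered only through the authors' peak calling.

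Rows were selected by gene name. Of 10830 names, 10325 matched a GENCODE 44 symbol and 505 did not. Coordinates are counted from 1. Peaks were placed on the canonical transcript by their centre, coverage was the share of the union of exon bases (or of coding or 3′ UTR bases) under peaks, and bound meant a peak in both replicates. Percentiles rank genes or peaks within their own list. ACAGAGA was searched on both strands of all peaks. RefSeq (GRCh38) gave the gene start of CEBPB.

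The members and the lists of other genes were chosen with earlier results of these data known. The text names all 8 factors, whether or not a list held a peak on them. Of the other liver factors, those named were the 5 with the highest median fold percentile among genes present in all 6 lists, those bound by METTL16 and in no eIF3a list, and those with the presence pattern of a member that lacks a peak. The test between groups was a two-sided exact permutation test. Alternatives were a minimum fold of 4, the 5000 most significant peaks of each list, an adjusted p-value of at most 0.001, either replicate, other denominators and overlaps, leaving out each list, and the replicate number as a block. Scripts were tested on simulated data and run with Python 3.11.15, numpy 2.4.6, pandas 2.3.3 and scipy 1.17.1.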

Additional observations from a re-analysis of the deposited data

How the results depend on the processing

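With peaks of a fold enrichment of at least 4 only, METTL16 bound 4 of the 8 factors, eIF3a 1, eIF3b 2 and all 3 proteins 0. The factor left for eIF3a was NR5A2, whose peaks shared no base between the eIF3a replicates. Of the 45 other factors METTL16 bound 16, eIF3a 9 and eIF3b 18. No share of all genes is given for the changed settings of this paragraph. Its counts therefore cannot be told apart from a general change in the number of peaks. At a fold of at least 4, coding shares were 63.1% ± 28.6 in METTL16, 66.7% ± 47.1 in eIF3a and 35.0% ± 21.2 in eIF3b (mean ± SD over 2 lists). Overlaps were 3.57% for METTL16 with eIF3a, 19.1% for METTL16 with eIF3b and 33.3% for eIF3a with eIF3b. That setting keeps 27 of the 115 peaks. With the 5000 most significant peaks of each list, eIF3a bound 1 and all 3 proteins 1, the eIF3a coding share was 32.5% and the METTL16 overlap with eIF3b 55.7%. With a peak in either replicate, all 3 proteins had 8 and eIF3a 38 of the 45. Counted by bases, coding shares were 48.2% in eIF3a and 53.8% in eIF3b, and with an overlap of at least 50% eIF3a with eIF3b came to 73.4%. The cause was not tested.

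Leaving out 1 list at a time gave 6 to 8 bound for METTL16, 6 to 8 for eIF3a, 7 to 8 for eIF3b and 4 to 6 for all 3. A peak in the 1 remaining list then sufficed, so these counts could only stay or rise. Comparisons without overlap came to 13 to 18 in place of 12 (18 without eIF3a replicate 1), where a lone list always makes overlap less likely. Overlap of METTL16 with eIF3a ranged from 33.5% to 79.9%, of METTL16 with eIF3b from 72.8% to 89.95%, and of eIF3a with eIF3b from 78.8% to 85.1%. With the replicate number as a block, 1 list per protein also sufficed. Bound factors then averaged 7, 7 and 7.5 for METTL16, eIF3a and eIF3b and 5.5 for all 3. Overlaps were 56.4%, 81.1% and 81.0%, and 17 of 24 comparisons had the same sign in both numbers. The samples share only a number, since nothing in the labels pairs them. Of 263 alternatives over 38 results, 35 moved a value by more than the spread between replicates or a count by more than 1.5 times. The sign of a coverage difference turned in 14 alternatives, 12 of them with a list left out, over 10 of the 24 comparisons, and in all 14 the lists of both proteins overlapped. Without eIF3a replicate 2, FOXA2 went from 7.71 to -13.1 for METTL16 minus eIF3a and from -8.81 to 12.01 for eIF3a minus eIF3b. HNF4A METTL16 minus eIF3a went from 4.42 to -0.880 without METTL16 replicate 1, and FOXA3 METTL16 minus eIF3b from 5.06 to -3.20 without eIF3b replicate 2. The order of the METTL16 and eIF3a coding shares also turned at a fold of at least 4, where the SD over 2 lists was 28.6 for METTL16 and 47.1 for eIF3a. The unknown depth limits every missing peak.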

Other observations

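As a check on the cells, peaks on markers were listed, although a peak is enrichment over input and not a level. Of 10 hepatocyte genes, 9 had a peak in some list, a count without a background share here. SERPINA1 and FGA had one in all 6 lists, APOA1, APOA2 and APOB in 5, all but eIF3a replicate 2, and TTR in none. ALB, the albumin gene, had a peak only in METTL16 replicate 2, and AFP and TF (transferrin) only in the METTL16 lists. METTL16 bound 7 of the 10, eIF3a 2 and eIF3b 5. Of the genes in any list 42.6%, 42.4% and 60% met the same rule, and of protein coding genes 22%, 22% and 31.1%. Of 8 markers of other liver cell types, COL1A1, KRT7 and DES had no peak. PTPRC had one in METTL16 replicate 1 alone, CD68 and PECAM1 in 4 lists each, and VWF and ACTA2 in 5, with a highest fold enrichment of 35.8 for VWF and 2.12 for ACTA2. METTL16 bound 2 of these 8, eIF3a 1 and eIF3b 4, against the same shares of all genes. Neither set of markers was tested.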
